A study of Rattus norvegicus with 8 samples.

Results

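Translation factors are the proteins that load an mRNA onto the ribosome and move the ribosome along it. The genes described here are those of the initiation factors (Eif), the elongation factors (Eef) and the Rps6k protein kinases on a rat expression array. Every probe set with a single annotated symbol starting with Eif, Eef or Rps6k was taken, and each gene was read from the probe set with the highest mean intensity over all captures. This gave 61 genes with 74 probe sets, of 10411 genes with a single symbol on the array. Another 4 probe sets of these families carry several symbols (Eif3e and Eif5 beside a related locus) and were left out. Of the 61 genes, 59 were bright enough to be tested. The other two, Eef1akmt4 (an eEF1A lysine methyltransferase) and Rps6ka6 (a kinase of the RSK family), were dim, with means of 11.7 and 3.1 in orbital captures, against 26.45 and 5.03 in global captures.

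The samples were laser captures of the orbital layer (n = 4) and the global layer (n = 4) of extraocular muscle, the muscle that turns the eye, from adult rats. The labels name no treatment, strain, sex or number of rats. The orbital layer faces the bony orbit and the global layer faces the eyeball. The titles carry the prefix R2 or R3, with 2 captures of each layer under each prefix, and the meaning of the prefix is not stated. Orbital captures 3 and 4 have titles with the same sample stem, while in every other pair the stems differ. Whether they are repeats of the same sample is not stated, and n = 4 counts them as separate captures. No label ties a capture to an animal. Where several captures of a layer came from the same rat, p-values can be too small. Where a rat gave both layers, a test that ignores this can make them too large. What the p-values measure is the spread of these 8 captures. A difference is the orbital minus the global mean of log2(intensity + 1), with its standard error (SE). It was tested with limma, p-values were adjusted by the Benjamini-Hochberg method over all 9520 probe sets tested, and a gene passed at an adjusted p under 0.05. In bulk captures, fewer cells of a type and less RNA per cell cannot be told apart.

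Translation starts when the cap-binding protein eIF4E, held on the scaffold eIF4G with the helicase eIF4A, brings the mRNA to a ribosomal subunit that carries eIF2, eIF3 and the initiator tRNA. eIF4E-binding proteins block that scaffold until the kinase complex mTORC1 phosphorylates them, and mTORC1 also activates the S6 kinases. During elongation eEF1A delivers aminoacyl-tRNA and eEF2 moves the ribosome. eEF1A has a widely expressed form, encoded by Eef1a1, and a form that in adult rodents is found mainly in muscle fibres and neurons, encoded by Eef1a2.

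RefSeq start sites (build GRCr8) were found for 56 of the 61 genes. The windows below belong to the 4 genes that passed and to Eef1a2, the partner of Eef1a1 in the ratio described later. They run from 100 bases before the annotated start to 20 after it, on the strand of the gene. Capitals mark the letters TATAA or CACGTG before the start, on either strand, and a C followed by at least 5 pyrimidines that begins within 5 bases of the start. Such a tract at the first base is the hallmark of mRNAs with a terminal oligopyrimidine tract, whose translation responds to mTORC1.
Eef1a1 (chr8:88225050-88225169, minus strand): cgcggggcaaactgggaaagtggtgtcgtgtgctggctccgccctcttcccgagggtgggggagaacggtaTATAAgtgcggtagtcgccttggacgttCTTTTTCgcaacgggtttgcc
Eef1a2 (chr3:188652614-188652733, minus strand): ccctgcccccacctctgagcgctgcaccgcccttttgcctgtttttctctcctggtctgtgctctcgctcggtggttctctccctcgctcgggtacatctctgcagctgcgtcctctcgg
Eif4e (chr2:229740653-229740772, plus strand): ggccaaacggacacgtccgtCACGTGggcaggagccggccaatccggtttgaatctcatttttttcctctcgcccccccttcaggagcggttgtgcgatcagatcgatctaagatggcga
Eif4g3 (chr5:155481278-155481397, plus strand, the more upstream of its starts): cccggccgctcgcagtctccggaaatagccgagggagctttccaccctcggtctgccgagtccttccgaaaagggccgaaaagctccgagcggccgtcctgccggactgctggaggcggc
Rps6kb1 (chr10:71865192-71865311, minus strand): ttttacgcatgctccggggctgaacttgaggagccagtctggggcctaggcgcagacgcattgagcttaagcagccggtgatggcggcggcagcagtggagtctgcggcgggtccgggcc
The Eef1a1 window holds both TATAA and a pyrimidine tract, and that of Eif4e holds CACGTG. Neither Eef1a2 nor Rps6kb1 nor the Eif4g3 start shown holds any of the 3. Over all 33469 promoters in the table, TATAA was found in 3666 (11%), CACGTG in 935 (2.79%) and the tract in 3318 (9.91%). Among the promoters of these genes, which number 59 because some genes have several starts, the counts were 7, 7 and 10. The 10 genes with a tract, such as Eef1b2, Eif3f, Eif3m and a second start of Eif4g3, had a median layer difference of -0.10, and those without a tract had a median of -0.11. These matches describe letters in the window and not sites of binding.

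Few of these genes differed between the layers. Eef1a1 was higher in the orbital layer, and Eif4e, Eif4g3 and Rps6kb1 were lower. That is 1 gene higher and 3 lower of 59 tested (6.78%), while 7.68% of all 7163 genes tested passed, 4.09% higher and 3.59% lower, so the share that passed was near the background. The median difference of the 59 genes was -0.11 against 0.02 over all genes tested. Among the 59, 21 were above 0 and 38 below, against 3813 above and 3350 below over all genes tested. Of the 59, 33 differed by less than 0.2 and 5 (8.47%) by more than 0.5, a size reached by 15.4% of all genes tested. An unadjusted limma p under 0.05 was found for 10 of the 59 and for 1571 of all 7163 genes tested. The share among the 59 was not above that of all genes. The SE of a difference was between 0.11 and 0.34. None (0) of the 59 had a capture under the highest bacterial control probe set of its array.

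**Figure D1:**
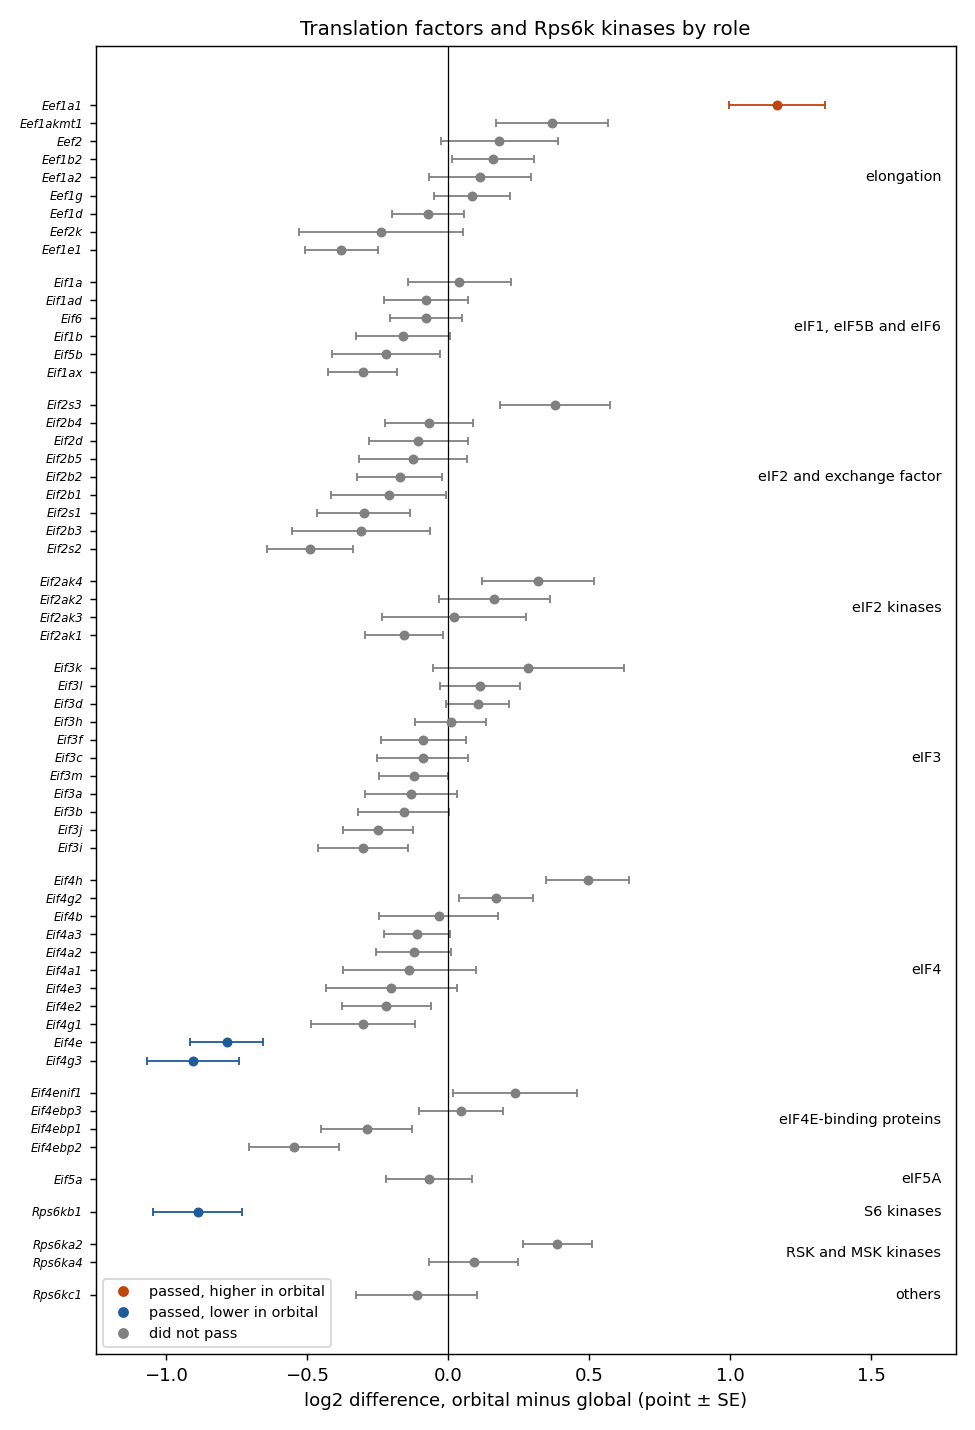
Log2 difference between orbital and global layer (x axis, point ± SE, 4 captures per layer) of the 59 tested genes (y axis), grouped by role. Eef1a1 lies furthest to the right at 1.17, and Eif4g3, Rps6kb1 and Eif4e lie furthest to the left at -0.91, -0.89 and -0.79, while the genes drawn in grey did not pass.

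Eef1a1, which encodes the common form of the factor that brings aminoacyl-tRNA to the ribosome, was about 2.25-fold higher in the orbital layer. Its brighter probe set read 4183.9, 4625.1, 3955.4 and 3018.4 in orbital captures 1 to 4, against 2104.8, 1977.7, 1607.0 and 1358.7 in global captures 1 to 4. Every orbital capture lay above every global capture. The difference was 1.17 ± 0.17 (SE, n = 4 captures per layer, limma adjusted p = 0.00106). A second probe set gave almost the same difference, 1.15 ± 0.17 (limma adjusted p = 0.000962), with 1679.0 to 2384.6 in orbital captures and 744.1 to 1105.5 in global captures. The difference was 1.11 among captures with the prefix R2 and 1.22 among those with R3. It passed in all 24 alternatives, at 1.05 to 1.34. Eef1a1 has many processed pseudogenes, so signal from related sequences cannot be separated from it on this array.

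Eef1a1 is also expressed by cells other than muscle fibres, and the markers of those cells were read beside it. Of 10 fibroblast and matrix markers tested, 0 passed in limma, their median difference was 0.26, and their summed intensity was 7692 to 9870 in orbital captures and 5092 to 8921 in global captures. Dcn, Mgp and Lum differed by 0.57, 0.56 and 0.59 without passing, while Col1a1, Col3a1 and Postn differed by -0.25, -0.10 and -0.84. Of 8 endothelial markers 1 passed (Eng, higher in the orbital layer), with sums of 1265 to 1834 in orbital captures and 1237 to 1460 in global captures. Flt1 and Vwf differed by 0.58 and 0.41, with every orbital capture above every global one, and did not pass. Cldn5 went the other way, at -0.23. Of the 7 Schwann cell and nerve markers on the array, 4 were tested and 1 passed (Nefm, higher in the orbital layer), with sums of 2500.1 to 4783 in orbital captures and 1316 to 4585 in global captures. Sox10, Nefl and Nefh of that list lay under the highest bacterial control probe set in most captures. Of the 8 macrophage and blood markers on the array, 7 were tested and 0 passed, with sums over all 8 of 1598 to 2282 in orbital captures and 1509 to 3302 in global captures. In each of these 4 lists the sums of the layers overlapped. Of the 7 smooth muscle and pericyte markers on the array, 5 were tested and 1 fell (Myh11). Sums over all 7 were 485 to 867 in orbital captures and 849 to 1014 in global captures. Tagln differed by -0.73, with every orbital capture below every global one, and did not pass. Rgs5 went the other way, at 0.26. The 4 photoreceptor markers on the array, which should be absent from muscle, had sums of 1267 to 2401 in orbital captures and 260 to 954 in global captures. Of the 3 that were tested 1 rose. That was Guca1a, with 1027.9 to 1663.6 in orbital captures and 208.4 to 450.3 in global captures. The layers overlapped for Sag (137.9 to 802.3 in orbital, 2.2 to 389.3 in global captures) and Gnat1 (68.1 to 222.9 in orbital, 8.7 to 135.7 in global captures). C1qb of the macrophage list and Rcvrn of the photoreceptor list lay under the bacterial controls in most captures. The part of any of these lists in the differences given here was not tested.

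Eef1a2, the form of muscle and neurons, did not pass. Its single probe set read 144.5, 106.6, 127.9 and 159.8 in orbital captures 1 to 4, against 102.2, 117.2, 159.8 and 119.5 in global captures 1 to 4. The layers overlapped over their whole range, with a difference of 0.11 ± 0.18 (SE, limma adjusted p = 0.772).

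The ratio of Eef1a1 to Eef1a2 was formed in each capture. As the probe sets differ in how brightly they hybridise, the ratio does not give the number of transcripts of one gene per transcript of the other, and only its differences between captures can be read. It was 28.9, 43.4, 30.9 and 18.9 in orbital captures 1 to 4, against 20.6, 16.9, 10.1 and 11.4 in global captures 1 to 4. Orbital capture 4 lay below global capture 1, and every other orbital capture lay above all global captures. On the log2 scale the ratio averaged 4.86 ± 0.49 in orbital captures and 3.81 ± 0.48 in global captures (SD, n = 4 each). The difference of 1.05 missed the threshold (exact permutation test, two-sided, p = 0.0571, where 4 against 4 captures allow no p below 0.0286). Within the prefix R2 the difference was 0.93 and within R3 it was 1.18, and 2 captures against 2 allow no p below 0.333. With the second Eef1a1 probe set, an alternative chosen after seeing the data, the ratio was higher in every orbital than in every global capture, and the difference was 1.04 (exact permutation p = 0.0286). Within each prefix both orbital captures lay above both global captures, and the overlap arose only across prefixes.

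**Figure D2:**
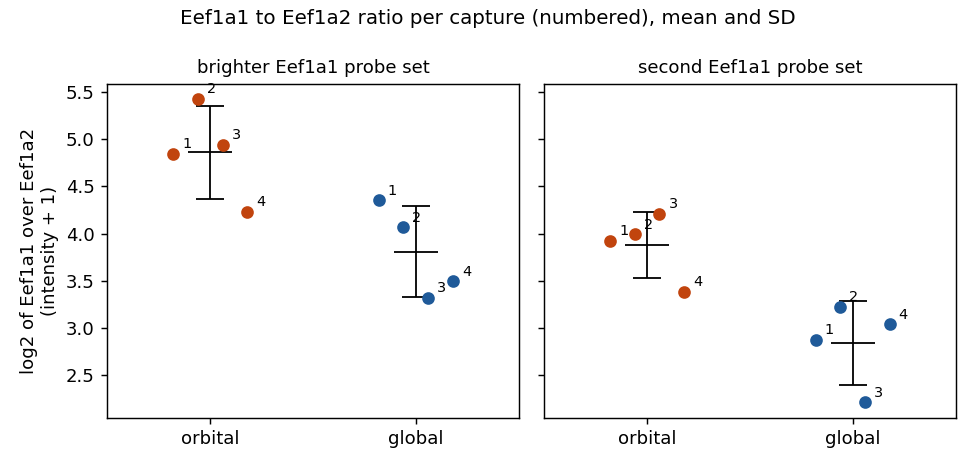
Log2 ratio of Eef1a1 to Eef1a2 (y axis) in each capture of the orbital and the global layer (points, numbered by capture), with mean and SD, for the brighter Eef1a1 probe set on the left and the second one on the right. On the left orbital capture 4 at 4.23 falls below global capture 1 at 4.35, and on the right no orbital capture overlaps the global ones.

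The other elongation genes did not pass. Of 9 tested, 1 rose (Eef1a1, 11.1% of the group against 7.68% of all genes) and 0 fell, and 2 had an unadjusted p under 0.05. The subunits of the eEF1B complex, which recharges eEF1A with GTP, differed by 0.16 ± 0.15 (Eef1b2), -0.07 ± 0.13 (Eef1d) and 0.09 ± 0.14 (Eef1g). Eef1b2 averaged 1851 in orbital captures and 1653 in global captures, Eef1d 853 in orbital captures and 894 in global captures, and Eef1g 2663 in orbital captures and 2535 in global captures. Eef2, the translocation factor, had 649.8, 372.6, 763.9 and 528.5 in orbital captures 1 to 4, against 489.4, 373.8, 544.3 and 591.6 in global captures 1 to 4. Its spread within the orbital layer exceeded the difference of 0.18 ± 0.21 (SE, limma adjusted p = 0.674). Eef2k, the kinase that inactivates eEF2, differed by -0.24 ± 0.29 (limma adjusted p = 0.695). Eef1akmt1, a methyltransferase that acts on eEF1A, differed by 0.37 ± 0.20, with overlapping layers (limma adjusted p = 0.312). Eef1e1, a small protein of the aminoacyl-tRNA synthetase complex, had 256.5 to 284.5 in orbital captures and 310.4 to 397.3 in global captures (-0.38 ± 0.13, limma adjusted p = 0.0984). The layers of Eef1e1 did not overlap, and the gene, outside the naming rule, was chosen after its values were seen.

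Of the 3 genes that fell, 2 belong to the eIF4 group, in which 2 of 11 tested passed (18.2%, against 7.68% of all genes). With so few genes that share rests on 2 calls. Eif4e, the cap-binding protein, read 217.2, 279.4, 222.4 and 222.0 in orbital captures 1 to 4, against 374.0, 429.7, 409.7 and 404.8 in global captures 1 to 4. The highest orbital capture lay well below the lowest global capture. The difference was -0.79 ± 0.13 (SE, n = 4 captures per layer, limma adjusted p = 0.00241), or 1.72-fold higher in the global layer. It was -0.70 within R2 and -0.87 within R3, and leaving out any 1 capture kept it past the threshold (highest adjusted p = 0.00956). Eif4e has a much dimmer probe set, with 27.9 to 48.2 in orbital captures and 11.6 to 36.9 in global captures, which was under the filter and differed by 0.44, in the opposite direction and with overlapping layers. With the mean over both probe sets the difference of Eif4e was -0.18 and did not pass (limma adjusted p = 0.687).

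Eif4g3, which encodes one of the eIF4G scaffolds, fell by about as much. Its single probe set read 137.4, 169.4, 165.9 and 154.3 in orbital captures 1 to 4, against 221.0, 325.3, 359.5 and 287.0 in global captures 1 to 4. The orbital captures were close to each other and all below the global ones, which spread more widely. The difference was -0.91 ± 0.16 (SE, limma adjusted p = 0.00387), 1.87-fold higher in the global layer, with -0.81 within R2 and -1.001 within R3. The related scaffold Eif4g1 averaged 132 ± 17.95 in orbital captures and 166 ± 38.3 in global captures (SD, n = 4 each), a difference of -0.30 ± 0.18 that did not pass (limma adjusted p = 0.376). Whether Eif4g3 and Eif4g1 differ from each other in this respect was not tested.

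**Figure D3:**
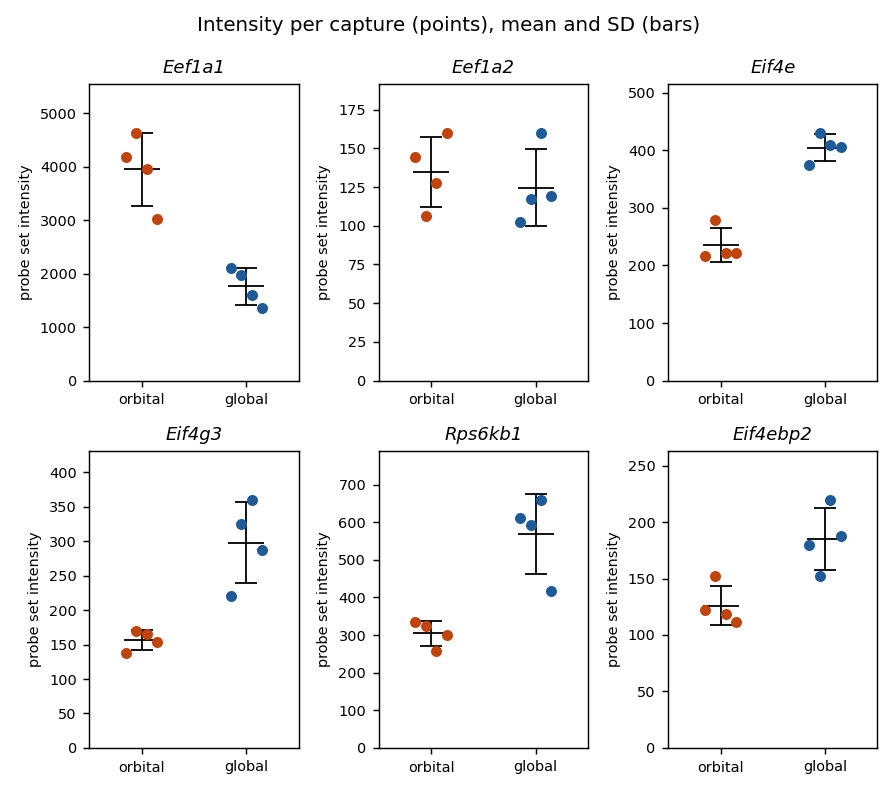
Probe set intensity (y axis, starting at 0) of 6 genes in each capture of the orbital and global layer, with mean and SD (bars, n = 4 per layer). The orbital captures of Eef1a1 lie above all global ones, those of Eif4e, Eif4g3, Rps6kb1 and Eif4ebp2 lie below, and those of Eef1a2 overlap, and of the 6 genes Eef1a2 and Eif4ebp2 did not pass.

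The remaining genes of the eIF4 group did not pass. Of 11 tested, 2 fell and 0 rose. Eif4h, a cofactor of the eIF4A helicase, had 436.9, 432.1, 576.8 and 455.2 in orbital captures 1 to 4, against 331.5, 271.2, 370.5 and 375.4 in global captures 1 to 4. All orbital captures were above the global ones, and the difference of 0.50 ± 0.15 had a limma adjusted p of 0.0591. Eif4h passed in 2 of 24 alternatives, with the title prefix as a fixed block and with the filter at the 60th percentile, and not with the prefix as a random block or with captures averaged per prefix. The helicases Eif4a1 and Eif4a2 differed by -0.14 ± 0.24 and -0.12 ± 0.13. Eif4g2, a scaffold that lacks the eIF4E-binding part, differed by 0.17 ± 0.13 at its brighter probe set and by -0.32 ± 0.12 at its second (limma adjusted p = 0.5003 and 0.118). Eif4b, another helicase cofactor, likewise differed by -0.03 at one probe set and by -0.66 at the other (limma adjusted p = 0.948 and 0.0569).

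The eIF4E-binding proteins, which compete with eIF4G for eIF4E, had no member (0 of 4) that passed in limma, and 1 had an unadjusted p under 0.05. That was Eif4ebp2, with 122.3, 151.8, 118.3 and 111.9 in orbital captures 1 to 4, against 179.6, 152.5, 219.2 and 187.6 in global captures 1 to 4. The layers just failed to touch, at orbital capture 2 and global capture 2, and the difference was -0.55 ± 0.16 (SE, limma adjusted p = 0.0564). Without either of those captures, one at a time, it passed, as it did with quantile or cyclic loess normalization and with the filter at the 60th percentile. It was -0.28 within R2 and -0.81 within R3. Eif4ebp1 averaged 139 ± 19.1 in orbital captures and 171 ± 26.7 in global captures (SD, n = 4 each), with a difference of -0.29 ± 0.16 (limma adjusted p = 0.329), and Eif4ebp3 differed by 0.05.

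Rps6kb1, the S6 kinase that mTORC1 activates and that phosphorylates ribosomal protein S6, was the third gene that fell. The brighter of its probe sets read 333.8, 324.5, 257.9 and 300.6 in orbital captures 1 to 4, against 610.2, 593.5, 658.1 and 415.8 in global captures 1 to 4. Global capture 4 was the lowest of its layer and still above every orbital capture. The difference was -0.89 ± 0.16 (SE, limma adjusted p = 0.00358), 1.85-fold higher in the global layer, with -0.87 within R2 and -0.91 within R3. A dim second probe set had 20.1 to 28.6 in orbital captures and 19.5 to 35.4 in global captures, near the bacterial controls, and differed by -0.16. With the mean over both, the difference was -0.52 and did not pass (limma adjusted p = 0.0641), and without orbital captures 3 and 4 it was -0.77 (limma adjusted p = 0.0590).

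Among the RSK and MSK kinases, which lie downstream of the MAP kinases, 0 of 2 tested passed in limma and 1 had an unadjusted p under 0.05. Rps6ka2 had 274.7, 262.8, 244.1 and 259.2 in orbital captures 1 to 4, against 197.0, 192.1, 188.5 and 217.3 in global captures 1 to 4. The layers did not overlap, but the difference of 0.39 ± 0.12 had a limma adjusted p of 0.0787. Rps6ka4 differed by 0.09 and Rps6kc1, a more distant relative, by -0.11.

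**Figure D4:**
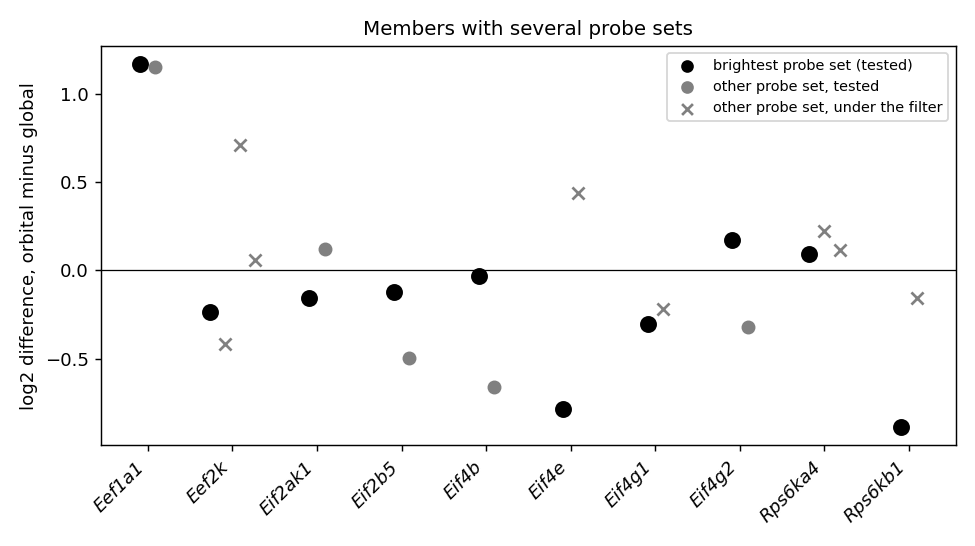
Log2 difference between orbital and global layer (y axis) at each probe set of the 10 genes that have several (x axis), with the brightest probe set in black, other tested ones as grey circles and those under the filter as grey crosses. Both Eef1a1 probe sets lie at about the same height, while the dim second probe sets of Eif4e (0.44) and Rps6kb1 (-0.16) do not follow the brightest ones.

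The eIF2 group was formed by symbol. It holds subunits of eIF2, which brings the initiator tRNA, subunits of the exchange factor eIF2B, and Eif2d, which is part of neither. This group had 0 of 9 genes past the threshold in limma and 1 with an unadjusted p under 0.05. That was Eif2s2, the beta subunit, with 1082.3, 843.7, 876.0 and 976.3 in orbital captures 1 to 4, against 1532.6, 1114.2, 1606.7 and 1106.0 in global captures 1 to 4. The layers did not overlap, with a difference of -0.49 ± 0.15 (limma adjusted p = 0.0742), and it passed without global capture 2. The alpha subunit Eif2s1 differed by -0.30 ± 0.16 and the gamma subunit Eif2s3 by 0.38 ± 0.20 (limma adjusted p = 0.320 and 0.291). Of this group 8 genes had a difference below 0 and 1 above, against 3350 below and 3813 above over all genes tested. Eif2b5, the catalytic subunit of eIF2B, differed by -0.12. The kinases that phosphorylate eIF2 alpha under stress gave 0 of 4 past the threshold in limma and 0 with an unadjusted p under 0.05. The haem-sensing Eif2ak1 differed by -0.16, Eif2ak2, which senses double-stranded RNA, by 0.16, Eif2ak3 of the endoplasmic reticulum by 0.02 and Eif2ak4, which senses uncharged tRNA, by 0.32.

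The 11 eIF3 genes, subunits of the large complex that bridges mRNA and ribosome, gave 0 past the threshold and 0 with an unadjusted p under 0.05 in limma. Their differences ran between -0.30 and 0.29 with a median of -0.09, and Eif3a, the large scaffold subunit, differed by -0.13 ± 0.16. Most were bright on both sides, such as Eif3h with 1490 ± 184 in orbital captures and 1477 ± 123 in global captures (SD, n = 4 each). The factors of start site selection and subunit joining gave 0 of 6 past the threshold in limma, with 1 at an unadjusted p under 0.05. That was Eif1ax, an eIF1A gene, with 386.6 to 465.8 in orbital captures and 482.2 to 596.8 in global captures (-0.30 ± 0.12, limma adjusted p = 0.169). Its layers did not overlap, and it too was chosen after its values were seen. Eif5b, the GTPase of subunit joining, differed by -0.22 ± 0.19, Eif6, which keeps free large subunits apart, by -0.08 ± 0.13, and Eif5a, the hypusine-carrying factor, by -0.07 ± 0.15.

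Counted by overlap alone, the 4 orbital captures lay above all global captures for 3 of the 59 genes (5.08%) and below them for 7 (11.9%). Over all genes tested these shares were 7.48% and 6.80%. The 3 were Eef1a1, Eif4h and Rps6ka2, and the 7 were Eif4e, Eif4g3, Rps6kb1, Eif4ebp2, Eif2s2, Eef1e1 and Eif1ax. Of the 59, 10 had an unadjusted limma p under 0.05, the same 10 genes, against 1571 of all 7163 genes tested. An interaction of layer and title prefix in limma passed for 0 of the 59, and for 0 of all 7163 genes (0.00%). At an unadjusted p under 0.05 it held 1 of the 59, Eif4a1, which differed by 0.38 within R2 and by -0.65 within R3, and 215 of all genes.

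Other genes of the pathway were read from 6 lists, 73 genes in all that were tested. Of these 1 rose and 5 fell (8.22%, against 7.68% of all genes). Among 22 genes of mTORC1 and its inputs 3 fell and 0 rose (13.6%, against 7.68% of all genes). Ddit4l, a stress-induced inhibitor abundant in skeletal muscle, had 1659.5, 1419.1, 1188.3 and 1848.9 in orbital captures 1 to 4, against 2346.6, 2667.1, 2780.3 and 2304.4 in global captures 1 to 4. The layers were well apart, with a difference of -0.74 ± 0.15 (SE, limma adjusted p = 0.00784). Within either prefix alone Ddit4l did not pass. Deptor, which binds mTOR, averaged 366 ± 55.3 in orbital captures and 541 ± 36.5 in global captures (SD, n = 4 each, difference -0.57, limma adjusted p = 0.0184). The Deptor call was lost on leaving out orbital capture 1 or 2 or global capture 1 or 3, and within either prefix alone. Sesn1, a sestrin that signals a lack of amino acids, averaged 232 ± 21.2 in orbital captures and 343 ± 49.0 in global captures (-0.55, limma adjusted p = 0.0291). The Sesn1 call was lost in 12 of 24 alternatives, among them 6 of the 8 fits that left out 1 capture (all but orbital capture 2 and global capture 4). The kinase Mtor itself differed by 0.30, its partner Rptor by -0.17 and the activator Rheb by 0.01, and none of those passed. Other genes whose products restrain mTORC1 did not pass either, with differences of -0.55 for Akt1s1, -0.08 for Tsc1, 0.18 for Tsc2 and 0.23 for Ddit4.

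Of 12 partners of the cap and the poly(A) tail, 2 fell and 0 rose (16.7%, against 7.68% of all genes). Pabpc4, a cytoplasmic poly(A)-binding protein, had 691.3, 896.0, 744.9 and 702.7 in orbital captures 1 to 4, against 1051.1, 1057.5, 1361.4 and 1337.1 in global captures 1 to 4. No captures overlapped, and the difference was -0.66 ± 0.14 (SE, limma adjusted p = 0.0101). It was -0.42 within R2 and -0.90 within R3. Pabpc4 did not pass with orbital captures 1 and 2 alone or within prefix R2 alone. Paip1, which binds poly(A)-binding protein and stimulates translation, averaged 259 ± 38.2 in orbital captures and 410 ± 66.2 in global captures (SD, n = 4 each; -0.66, limma adjusted p = 0.0190). The Paip1 call was lost in 8 of 24 alternatives: on leaving out global capture 1 or 3 or orbital capture 1 or 3, with orbital captures 1 and 2 alone, within either prefix, and with the mean over probe sets.

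In the eIF2 stress response list 1 of 10 rose and 0 fell, while 7.68% of all genes tested passed. With so few genes the share of this list rests on 1 call. An unadjusted limma p under 0.05 was found for 4 of the 10, against 1571 of all 7163 genes tested. Atf5, a transcription factor whose mRNA is translated when eIF2 is phosphorylated, had 413.8, 276.9, 328.1 and 234.6 in orbital captures 1 to 4, against 149.3, 174.3, 148.0 and 190.3 in global captures 1 to 4. All orbital captures were higher, with a difference of 0.89 ± 0.18 (SE, limma adjusted p = 0.00719). Within either prefix alone the Atf5 call was lost. The other genes of the list did not pass. Chac1 differed by -0.85, Ddit3 by 0.55 and Atf4 by 0.37 (limma adjusted p = 0.0720, 0.0697 and 0.122), and Trib3 and Asns by -0.16 and 0.03. In limma 0 of 19 cytosolic aminoacyl-tRNA synthetase genes passed, with 0 at an unadjusted p under 0.05. The counts were 0 of 6 for termination and recycling, with 1 at that unadjusted p, and 0 of 4 for mitochondrial translation factors, with 0.

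**Figure D5:**
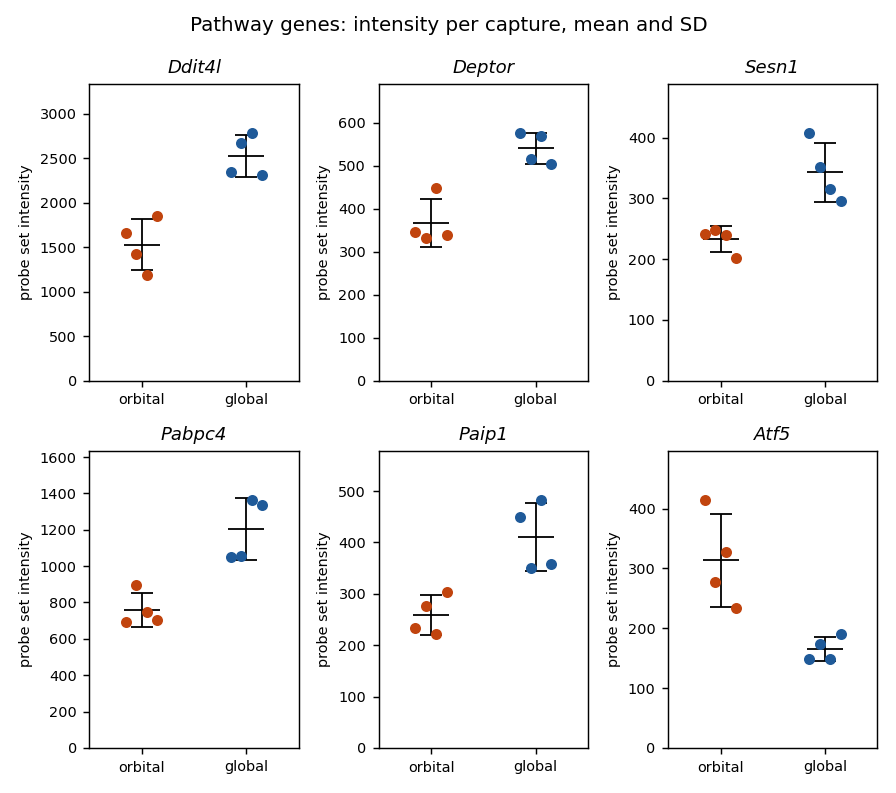
Probe set intensity (y axis, starting at 0) in each capture of the 6 pathway genes that passed, orbital and global layer, with mean and SD (bars, n = 4 per layer). The orbital captures of Ddit4l, Deptor, Sesn1, Pabpc4 and Paip1 lie below all global ones, and those of Atf5 lie above.

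Median intensities of the 8 arrays ran from 58.8 to 66.3, and precision is limited by having 4 arrays a layer. All 9 skeletal muscle markers read above the bacterial controls in every capture, with sums of 48751 to 74001 in orbital captures and 58772 to 91052 in global captures. Their median difference was -0.43, and of the 9 tested 1 fell (Ttn, -0.70, limma adjusted p = 0.00980) and 0 rose, while Myh4 had the most negative difference, -1.12, and did not pass. Of 6 fast glycolytic fibre genes 5 fell in the orbital layer, with a median difference of -3.49, and the part of these muscle and fibre genes in the other differences was not tested. The Gapdh ratio of 3′ over 5′ probe sets, a sign of RNA shortening, was 5.81 to 12.9 in the orbital captures, highest in captures 3 and 4, and 5.35 to 6.47 in the global captures. Without orbital captures 3 and 4, Eef1a1, Eif4e and Eif4g3 still passed. With those captures averaged into 1, Eef1a1, Eif4e, Eif4g3 and Rps6kb1 passed.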

How the data were processed

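Per the labels, laser-captured RNA underwent T7-based amplification before hybridisation to 1-colour Affymetrix rat arrays. The authors deposited a linear intensity for every probe set, and the summary software is not given in the sources used here. Trimmed means of the deposited arrays differed by at most 0.0039%, so the values were used as deposited, and each level is relative to its array.

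Of 15866 probe sets without controls, the 9520 with a mean log2 value at or above the 40th percentile were tested on log2(intensity + 1). The test was that of limma 3.58.1, run in R 4.3.3, with layer as the only term and an intensity trend. The filter and pseudocount affect dim probe sets most. The ratio had an exact permutation test. The fit was also run on simulated data in which every capture was independent, so that run does not cover captures that share a rat or are repeats. Symbols come from the platform annotation (12783 probe sets with 1 symbol, 312 with several, 2771 with none). Captures were numbered in accession order within a layer. The highest of 27 bacterial control probe sets was 17.7 to 41.5 per array.

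The genes and lists were chosen with earlier results of these data known. The text names genes that passed, the 5 largest differences in each direction, a set of well-known factors, and up to 4 passing genes per pathway list. Eef1e1, Eif1ax, Eif4b, Eif3h, Eif4ebp3, Rps6ka4, Rps6kc1, Mtor, Rptor, Rheb, Akt1s1, Tsc1, Tsc2, Ddit4, Atf4, Ddit3, Chac1, Trib3, Asns and the marker genes were added after their values were seen. Alternatives were 2 normalizations, pseudocounts of 16 and 64, other filters and eBayes settings, title prefix blocks, each prefix alone, averaged or omitted captures, and the mean over probe sets. Orbital captures 1 and 2 alone, and the second Eef1a1 probe set, were alternatives chosen after seeing the data.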

Additional observations from a re-analysis of the deposited data

Results flagged for a closer look

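In a few groups of 4 captures 1 capture stood far from the other 3, by a gap over range above Dixon's 95% critical value. This check was made in 64 groups, and chance gives about 1 in 20. Eef1b2 read 2306.7 in orbital capture 1, against 1649.0 to 1745.0 in the other orbital captures. Eif4e read 279.4 in orbital capture 2, against 217.2 to 222.4 in the other orbital captures, and was still below every global capture. Eif4h read 576.8 in orbital capture 3, against 432.1 to 455.2 in the others.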

How the results depend on the processing

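The 4 genes that passed kept their direction in every alternative run. Eef1a1 passed in all 24, Eif4g3 in 22, Eif4e in 21 and Rps6kb1 in 20. The count of genes that passed among the 59 was 1 within prefix R2 alone and 1 within R3 alone (Eef1a1 in both), 2 with the mean over all probe sets of a gene, and 4 to 6 on leaving out 1 capture. Over all genes the count was 81 within R2, 121 within R3, 276 with orbital captures 1 and 2 alone and 360 to 560 on leaving out 1 capture, with the lowest without global capture 3. In the pathway lists it was 0 within R2 (limma, with 9 at an unadjusted p under 0.05), 1 within R3 and 3 to 6 on leaving out 1 capture, with 3 without orbital capture 1, global capture 1 or global capture 3. Fewer captures enter each of those fits except the mean over probe sets, which uses all 8.

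The Eef1a1 to Eef1a2 difference was 1.06 with a pseudocount of 64, 1.05 with the mean over probe sets and 1.04 with the second Eef1a1 probe set, each with the smallest p possible (exact permutation, 0.0286). It was 0.86 to 1.26 on leaving out 1 capture, and the cause of the changed calls was not tested. With the title prefix as a replicate block, the 59 genes gave 5 calls as a fixed block and 4 as a random block, and the ratio differed by 1.05 (exact permutation within prefixes, p = 0.0556, the smallest possible). The prefix differences of the layers correlated with r = 0.16 across probe sets, which are not independent replicates. Normalization moved the median of all genes by under 0.1.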
